A study of Mus musculus with 12 samples.

Results

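Cardiac fibroblasts make and maintain the collagen-rich matrix between cardiomyocytes. In the unstressed heart they carry the receptor Pdgfra and the transcription factor Tcf21 and secrete proteoglycans such as Dcn, and after injury or pressure overload they become activated, divide, secrete matrix and take on genes such as Cthrc1, Fap and Meox1. Most of them arise from the epicardium, the outer sheet of the heart, whose cells express Wt1. The 10 markers described here were the rows of a deposited gene count table whose symbols are Pdgfra, Tcf21, Dcn, Lum, Ddr2, Cthrc1, Fap, Meox1, Thy1 and Wt1. They were 10 of the 24062 symbols in that table, and all 10 passed the filter on low counts in every comparison. Pdgfra, Tcf21 and Dcn were taken as resident markers, and Cthrc1, Fap and Meox1 as activated markers. The 10 markers were chosen with earlier results of these data known.

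Whole hearts from 12 mice in 4 groups of 3 were sequenced as poly(A) RNA. The adult hearts were from Lemd2 WT mice (replicates 1 to 3) and from KI/KI mice (replicates 4 to 6), which are homozygous for the c.T38>G allele of Lemd2 in every tissue, and both groups were 2 months old. The other hearts were taken at postnatal day 1 (P1) from Lemd2-floxed mice (replicates 1 to 3), which carry loxP sites around the first exon of Lemd2, and from cKO mice (replicates 4 to 6), in which a Myh6-Cre transgene deletes that exon in cardiomyocytes. LEMD2 is a protein of the inner nuclear membrane. Fibroblasts of cKO mice therefore keep the floxed Lemd2 alleles, whereas all cells of KI/KI mice carry the mutation. Founders of both lines were made in B6C3F1 zygotes and crossed to C57BL/6N. The label of the floxed mice names no Cre, so the transgene and the deletion cannot be told apart.

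Library totals ran from 37063669 to 44789753 counts, and a count of 3, used as the floor, was worth 0.067 to 0.081 CPM, the counts of a gene scaled to a common library size. Library sizes were normalized over all 12 hearts, and levels are given as mean ± SD with n = 3 mice. Lemd2 lay at 32.0, 34.8 and 32.9 CPM in WT hearts and at 25.6, 25.2 and 24.8 in KI/KI hearts. It lay at 24.3, 24.97 and 25.4 CPM in floxed hearts and at 6.59, 13.1 and 11.4 in cKO hearts, and fell in cKO (log2 fold change -1.27, SE 0.22, edgeR adjusted p = 0.0142). Libraries that stood apart from the other hearts of their group were cKO 6, in which 5.98% of genes lay more than 2-fold from them, cKO 4 with 4.05% and KI/KI 5 with 3.33%, against 0.79% to 2.17% in the other 9. In addition, cKO 4 had 612 CPM of Xist and almost no Y-linked transcript, unlike the other 11 hearts. Marker calls, gene lists and differences against Dcn were recomputed without each heart, and larger changes are given beside the results. In whole-heart RNA, fewer cells of a type and less RNA per cell cannot be told apart.

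Upstream sequences are shown for a pair of resident markers, because one rose in cKO hearts and the other did not. Of the 10 markers, 3 had a promoter window in the RefSeq table (GRCm38.p6), and those of Pdgfra and Tcf21 follow, 5′ to 3′ on the strand of the gene and ending before its first annotated exon. The Pdgfra sequence is chr5:75152001-75152250 (plus strand, 250 bases) and the Tcf21 sequence is chr10:22820175-22820393 (minus strand, 219 bases). Capitals mark an E-box (CANNTG), the site type read by basic helix-loop-helix factors such as TCF21, and the SMAD box (CAGAC, or GTCTG on the other strand), the site type of the TGF-β effectors.
Pdgfra: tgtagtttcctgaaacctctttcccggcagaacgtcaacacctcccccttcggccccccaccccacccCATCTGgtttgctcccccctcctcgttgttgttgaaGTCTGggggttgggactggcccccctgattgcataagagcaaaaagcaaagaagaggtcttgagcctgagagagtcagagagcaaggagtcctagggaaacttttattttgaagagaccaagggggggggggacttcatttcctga
Tcf21: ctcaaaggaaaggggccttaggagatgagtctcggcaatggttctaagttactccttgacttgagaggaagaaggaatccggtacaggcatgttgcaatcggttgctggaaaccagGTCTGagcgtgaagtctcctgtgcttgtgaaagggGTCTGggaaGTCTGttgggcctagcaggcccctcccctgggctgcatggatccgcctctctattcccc
The Pdgfra sequence held 1 E-box and 1 SMAD box, and the Tcf21 sequence held 0 E-boxes and 3 SMAD boxes, with no overlap between the motifs. Both strands were searched. Among all 32851 promoter windows of the table, 66.2% held an E-box and 42.2% a SMAD box in 250 bases, and 62.0% and 38.4% did in 219 bases. These matches describe letters and no binding was measured.

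The resident receptor Pdgfra, which binds platelet-derived growth factors, had nearly the same level in the 4 groups (chromosome 5, 75152292 to 75198215, plus strand of GRCm38). It lay at 84.5, 89.3 and 106 CPM in WT hearts and at 94.7, 115 and 107 CPM in KI/KI hearts. It lay at 95.5, 96.2 and 80.7 CPM in floxed hearts and at 93.3, 84.0 and 66.6 CPM in cKO hearts. The groups of each age overlapped, whereas all KI/KI hearts lay above all cKO hearts, and the highest group mean was 1.30 times the lowest. An annotated antisense transcript, Gm42802, shares 456 exonic bases with Pdgfra, and since the strand setting of the counting is not given in the sources used here, reads of the 2 genes could not be told apart.

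Tcf21, the transcription factor that commits epicardial cells to the fibroblast fate, was the resident marker with the widest range (chromosome 10, 22817281 to 22820174, minus strand). WT hearts held 9.07, 8.76 and 12.2 CPM and KI/KI hearts 10.1, 22.4 and 12.7 CPM. Floxed hearts held 23.9, 16.6 and 24.2 CPM and cKO hearts 58.3, 44.5 and 30.5 CPM. The 3 cKO hearts lay above every other heart, and KI/KI 5 was the only adult heart within the floxed range. The cKO mean was 4.44 times the WT mean.

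Dcn (decorin) and Lum (lumican) encode small leucine-rich proteoglycans that coat collagen fibrils, and they are neighbours on chromosome 10, where 46984 bases and 0 annotated genes separate them. Dcn lay at 748, 774 and 858 CPM in WT hearts and at 876, 1033 and 903 CPM in KI/KI hearts, and at 296, 291 and 281 CPM in floxed hearts. In cKO hearts it lay at 243, 208 and 339 CPM, both below and above the floxed range. Lum lay at 122, 120 and 136 CPM in WT, 139, 188 and 171 in KI/KI and 123, 115 and 112 in floxed hearts, and at 89.0, 90.4 and 133 in cKO hearts. For both genes all 3 KI/KI hearts were above all 3 WT hearts, and cKO 6 was the highest of the P1 hearts.

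Ddr2, a receptor tyrosine kinase that is activated by fibrillar collagen, lay at 97.6, 86.3 and 91.2 CPM in WT and at 91.7, 109 and 96.1 CPM in KI/KI hearts. It was lower at P1, with 51.9, 56.6 and 56.5 CPM in floxed and 55.2, 66.7 and 59.8 CPM in cKO hearts. Within each age the groups overlapped. The antisense gene 3110045C21Rik shares 90 exonic bases with Ddr2.

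The activated marker Cthrc1, a secreted protein of collagen triple helix repeats that marks matrix-producing fibroblasts in injured hearts, was close to the floor in adult hearts and well above it at P1. WT hearts held 0.322, 0.214 and 0.109 CPM (10, 7 and 4 counts) and KI/KI hearts 0.328, 0.702 and 0.141 CPM (11, 29 and 5 counts). Floxed hearts held 9.88, 10.3 and 11.7 CPM and cKO hearts 15.4, 22.9 and 19.1 CPM. The P1 groups did not overlap each other or the adult groups, whereas WT and KI/KI hearts overlapped.

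Fap, a serine protease of the fibroblast surface, had the most even group means of the activated markers. It lay at 10.1, 8.49 and 7.45 CPM in WT, 7.78, 6.92 and 7.08 in KI/KI and 7.81, 7.15 and 5.65 in floxed hearts. The cKO hearts held 4.53, 3.73 and 13.7 CPM. Hence cKO 6 had the highest level of the 12 hearts, and the other cKO hearts had the lowest.

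Meox1, a homeobox factor that drives profibrotic genes in stressed fibroblasts, lay at 12.5, 22.0 and 19.1 CPM in WT and at 12.04, 55.02 and 34.8 CPM in KI/KI hearts. It lay at 21.4, 17.2 and 23.7 CPM in floxed hearts and at 53.4, 80.0 and 57.6 CPM in cKO hearts. The KI/KI hearts spread from below the lowest WT heart to the level of the cKO hearts, with KI/KI 5 the highest of the adult hearts.

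Thy1, a surface glycoprotein of fibroblasts that T cells and neurons also carry, lay between 8.56 and 13.6 CPM in all 12 hearts. The 3 cKO hearts, at 11.5, 12.6 and 13.3 CPM, were above the 3 floxed hearts, at 10.7, 8.56 and 9.72 CPM. Wt1, the zinc finger factor of the epicardium, lay at 8.49, 9.25 and 7.43 CPM in WT and 7.54, 7.94 and 6.998 CPM in KI/KI hearts. At P1 it lay at 12.9, 20.3 and 22.0 CPM in floxed and 17.6, 16.2 and 20.0 CPM in cKO hearts, so that the ages did not overlap and the genotypes within each age did.

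**Figure D1:**
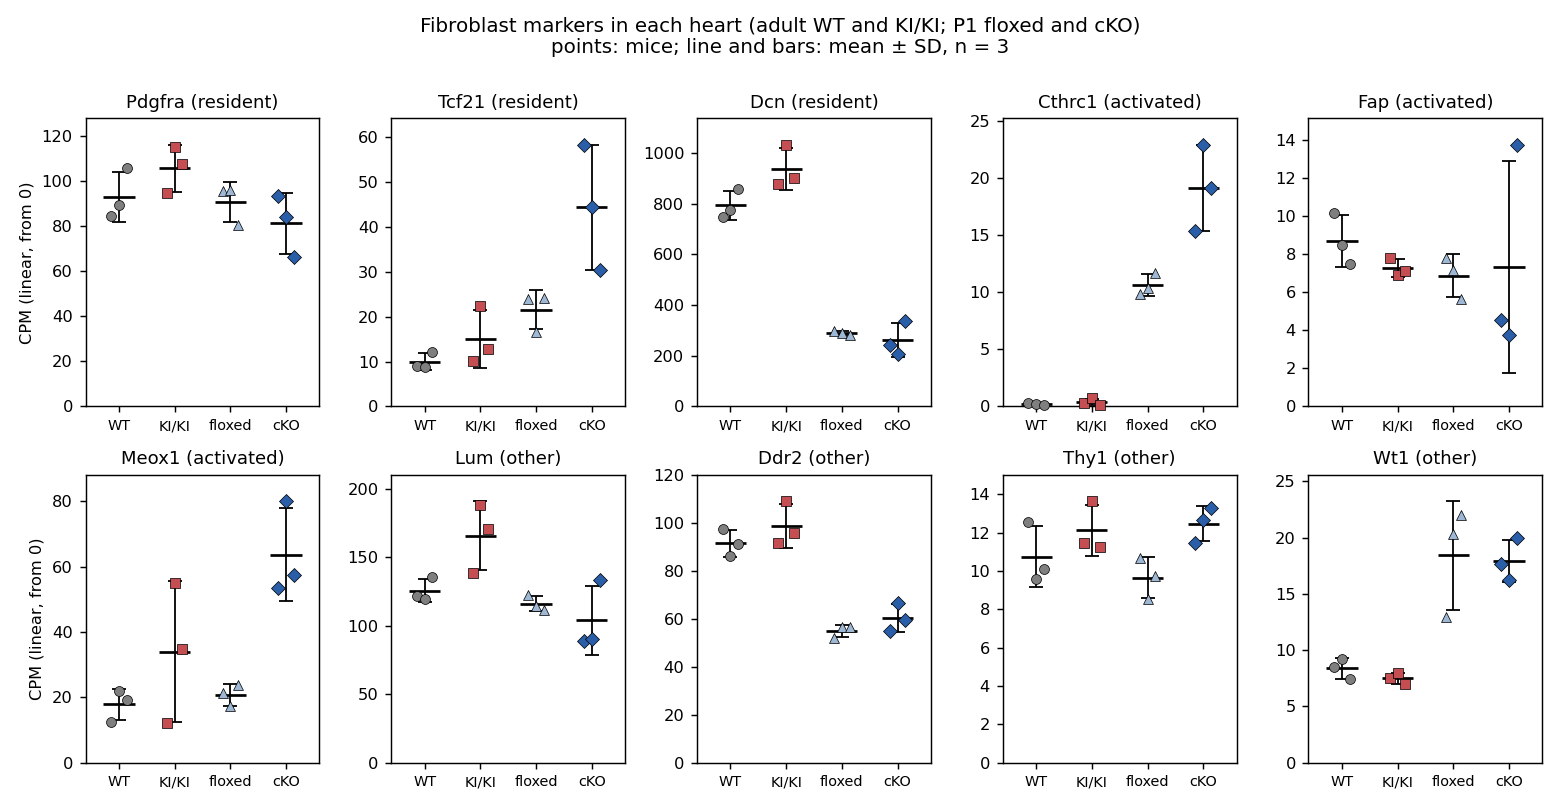
Level of each marker in CPM (y axis, linear and starting at 0) in each of 12 hearts, by group (x axis: adult WT and KI/KI, P1 floxed and cKO). Points are mice and the line with bars is the mean ± SD (n = 3). Tcf21, Cthrc1 and Meox1 lay higher in all 3 cKO hearts than in all 3 floxed hearts, and for Fap 1 cKO heart lay at 13.7 CPM with the others at 4.53 and 3.73 CPM.

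Compared per length of merged exons, Dcn was the most abundant marker in every group. In WT hearts it held 136 ± 9.78 CPM per kilobase, followed by Lum at 51.4 ± 3.53. Ddr2 (9.90 ± 0.61), Pdgfra (9.29 ± 1.11) and Meox1 (8.01 ± 2.18) came next and could not be separated by their spread, nor could Tcf21 and Thy1 after them. Fap and Wt1 followed and overlapped at 1.53 ± 0.24 and 1.35 ± 0.15 CPM per kilobase, and Cthrc1 was last at 0.135 ± 0.067. KI/KI hearts had the same order apart from Meox1, which moved above Ddr2 at 15.2 ± 9.65 CPM per kilobase and overlapped it.

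At P1 the order was different. In floxed hearts Dcn (49.6 ± 1.32 CPM per kilobase) and Lum (47.5 ± 2.30) overlapped, then Meox1 (9.33 ± 1.48), Tcf21 (9.19 ± 1.84) and Pdgfra (9.06 ± 0.87) overlapped each other, and Cthrc1 stood above Ddr2 at 6.68 ± 0.59. In cKO hearts Meox1 followed Dcn and Lum at 28.6 ± 6.43 CPM per kilobase, with a lowest heart that was still within the range of Tcf21 (18.9 ± 5.93). Tcf21 in turn overlapped Cthrc1 (12.02 ± 2.37), and all 3 cKO means exceeded that of Pdgfra (8.11 ± 1.35).

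To examine whether markers of the fibroblast differed in hearts with cardiomyocyte-specific loss of Lemd2, cKO hearts were compared with floxed hearts. Tcf21, Cthrc1 and Meox1 rose and none of the 10 markers fell. These 3 were 3 of 10 markers called higher with edgeR's quasi-likelihood test (adjusted p under 0.05), where 9.32% of the 15317 genes tested were called higher and 7.57% lower. Meox1 and Tcf21 were also past 2-fold, which 2.85% of genes were in the higher direction. All 3 cKO hearts lay above all 3 floxed hearts for 4 of 10 markers (Tcf21, Cthrc1, Meox1 and Thy1), and for 19.9% of all genes, and below them for 0 of 10 markers and 19.1% of all genes. The median log2 fold change was 0.10 over the markers and 0.00 over all genes tested.

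Meox1 changed most, from 20.8 ± 3.29 to 63.7 ± 14.3 CPM (log2 fold change 1.61, SE 0.18, edgeR adjusted p = 0.00634). Tcf21 went from 21.6 ± 4.32 to 44.4 ± 13.9 CPM (1.05, SE 0.27, edgeR adjusted p = 0.0394). Cthrc1 went from 10.6 ± 0.936 to 19.2 ± 3.77 CPM (0.84, SE 0.16, edgeR adjusted p = 0.0165). Thus 1 of the 3 resident markers and 2 of the 3 activated markers were called.

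The calls depended on which hearts were included, as did the number of calls over all genes, given below. Of the fits with 1 heart left out, Tcf21 kept its call only in that without cKO 6 (log2 fold change 1.26, edgeR adjusted p = 0.00697). It lost the call without floxed 1, 2 or 3 (adjusted p = 0.123, 0.122 and 0.0733), without cKO 4 (0.78, adjusted p = 0.0654) and without cKO 5 (adjusted p = 0.112), and also with the Y-linked level as a covariate (0.75, adjusted p = 0.0802) or with limma-voom (adjusted p = 0.0509). Cthrc1 lost it without floxed 1, floxed 2 or cKO 5 (adjusted p = 0.0970, 0.0711 and 0.0591). Meox1 kept it in all but the fit without floxed 1 (1.63, adjusted p = 0.0501). With each heart left out, the log2 fold change was 1.42 to 1.71 for Meox1, 0.70 to 0.97 for Cthrc1 and 0.78 to 1.26 for Tcf21. The direction of these 3 was higher in every fit.

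The other markers gave no call with all 6 hearts. Pdgfra (log2 fold change -0.16, SE 0.15), Dcn (-0.14, SE 0.17) and Lum (-0.16, SE 0.15) were at lower means in cKO hearts, with edgeR adjusted p of 0.490, 0.568 and 0.471. Ddr2 (0.14, SE 0.09), Fap (0.06, SE 0.47), Thy1 (0.37, SE 0.12) and Wt1 (-0.04, SE 0.20) had adjusted p of 0.304, 0.934, 0.0839 and 0.904 with edgeR. Thy1 passed with DESeq2 (adjusted p = 0.0490).

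Without cKO 6, the heart with the highest Dcn, Lum and Fap of the P1 hearts, 6 markers were called instead of 3. Dcn (-0.36, adjusted p = 0.0401), Lum (-0.37, adjusted p = 0.0207) and Fap (-0.73, adjusted p = 0.0449) were then lower in cKO hearts by edgeR's test, beside the 3 that were higher. The count was 0 without floxed 1, 1 without floxed 2 or cKO 5, and 2 without floxed 3 or cKO 4. Calls over all genes changed as well. They were 1427 higher and 1160 lower of 15317 with all 6 hearts. Without cKO 6 they were 1942 and 1521 of 15673, and without floxed 1 they were 86 and 74 of 15538.

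**Figure D2:**
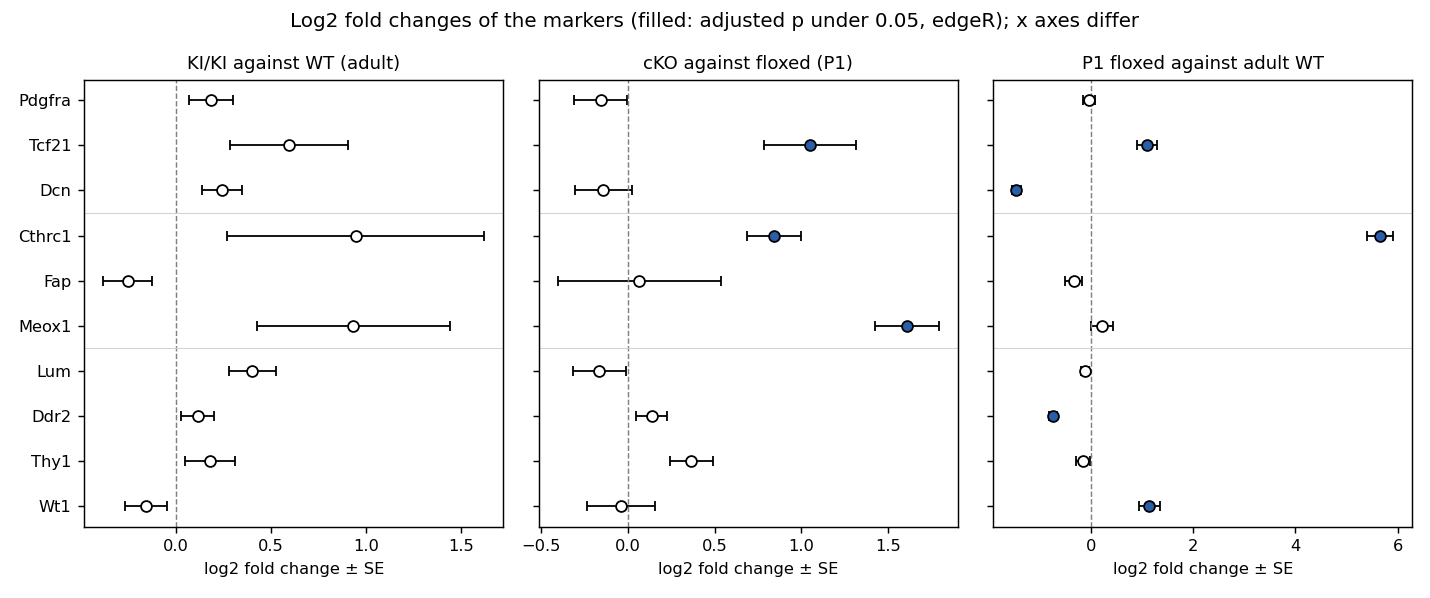
Log2 fold change ± SE of each marker (x axis, with a different range in each panel) in 3 comparisons, from edgeR; filled points have an adjusted p under 0.05. Tcf21, Cthrc1 and Meox1 were filled in cKO against floxed hearts, none was in KI/KI against WT hearts, and Tcf21, Dcn, Cthrc1, Ddr2 and Wt1 were in P1 floxed against adult WT hearts.

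The same question was asked of adult KI/KI hearts against WT hearts. No marker was called with edgeR's quasi-likelihood test, as no gene was (0 of 14592, or 0%, with a smallest adjusted p of 0.101). At an unadjusted p under 0.05 there was 1 marker, Lum, against 16.2% of all genes, and DESeq2 called 0 markers against 3.56% of genes. All 3 KI/KI hearts were above all 3 WT hearts for Dcn and Lum, that is 2 of 10 markers against 11.4% of genes, and below them for 0 markers against 10.4%. The log2 fold change was positive for 8 of 10 markers, with a median of 0.22 against 0.00 over all genes tested.

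Lum went from 126 ± 8.64 to 166 ± 25.2 CPM (log2 fold change 0.40, SE 0.12, edgeR adjusted p = 0.244) and Dcn from 793 ± 57.1 to 937 ± 83.9 CPM (0.24, SE 0.10, edgeR adjusted p = 0.311). Meox1 (0.94, SE 0.51), Cthrc1 (0.95, SE 0.68) and Tcf21 (0.60, SE 0.31) had larger log2 fold changes with wider errors and overlapping groups, and edgeR adjusted p of 0.391, 0.496 and 0.376. Without KI/KI 5 these 3 stood at 0.39, 0.15 and 0.19. Without KI/KI 4 they stood at 1.34, 1.07 and 0.81, and no marker was called in any fit with 1 heart left out. Pdgfra, Ddr2 and Thy1 had log2 fold changes of 0.19, 0.12 and 0.18, and Fap and Wt1 of -0.25 and -0.16, with edgeR adjusted p between 0.369 and 0.506.

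Both models were set against each other by testing, over all 12 hearts at once, the difference of their genotype effects. The models also differ in age, kind of allele, Cre transgene and the cells that carry the change, and these cannot be told apart here. No marker was called by edgeR or by DESeq2 (0 of 10), where edgeR called 2.43% of 15729 genes. The p of Lum was under 0.05 before adjustment (difference of log2 fold changes, cKO minus KI/KI, -0.56, SE 0.21, edgeR adjusted p = 0.176). Without cKO 6, Lum (-0.77, adjusted p = 0.0218) and Dcn (-0.59, adjusted p = 0.0382) were called by the same test. For Tcf21, Meox1 and Cthrc1 the differences were 0.45 (SE 0.43), 0.69 (SE 0.58) and -0.09 (SE 0.62). Thus a call in cKO hearts and none in KI/KI hearts was not shown to be a difference between the models.

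The markers were also compared between the control hearts of the ages, P1 floxed against adult WT, where age and floxed allele cannot be told apart. Cthrc1, Tcf21 and Wt1 were higher at P1 and Dcn and Ddr2 were lower. These were 3 of 10 markers called higher against 33.4% of 15183 genes, and 2 of 10 called lower against 31.8%. Cthrc1 differed most, from 0.215 ± 0.106 CPM in WT to 10.6 ± 0.936 in floxed hearts (log2 fold change 5.66, SE 0.26, edgeR adjusted p = 1.5e-06). The direction and call of each of the 5 held without any one heart.

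Wt1 (log2 fold change 1.15, SE 0.21) and Tcf21 (1.11, SE 0.19) were about as much higher at P1, with edgeR adjusted p of 0.00175 and 0.00140. Dcn (-1.45, SE 0.08) and Ddr2 (-0.73, SE 0.07) were lower, while Lum, the neighbour of Dcn, had a log2 fold change of -0.11 (SE 0.08, edgeR adjusted p = 0.254). Pdgfra (-0.03, SE 0.11), Meox1 (0.22, SE 0.21), Thy1 (-0.15, SE 0.14) and Fap (-0.33, SE 0.16) were not called, with edgeR adjusted p between 0.112 and 0.809. The resident trio therefore split 3 ways between the ages, with Tcf21 called higher, Dcn called lower and Pdgfra not called. The floxed hearts serve as controls of cKO and the WT hearts as controls of KI/KI, so these values are not independent of the genotype comparisons.

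To set activated against resident markers within each heart, the mean log2 CPM of Pdgfra, Tcf21 and Dcn was subtracted from that of Cthrc1, Fap and Meox1. This value was -4.75 ± 0.39 for WT hearts, -4.71 ± 0.28 for KI/KI hearts, and -2.84 ± 0.04 in floxed and -2.31 ± 0.49 in cKO hearts (SD, n = 3, no test, since the members were chosen). Of the activated markers only Cthrc1, close to the floor in adult hearts, was called between the ages (log2 fold change 5.66). Fap (-0.33) and Meox1 (0.22) were not. The KI/KI mean exceeded the WT mean by 0.04, with overlapping hearts, and without KI/KI 5 or WT 3 it was below it (-0.12 and -0.18). The cKO hearts were at -2.82, -2.27 and -1.83 and the floxed hearts at -2.89, -2.83 and -2.81. Thus cKO 4 lay within the floxed range and the others above it, a mean difference of 0.54 that was 0.30 without cKO 6 and 0.79 without cKO 4.

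Both means were higher in cKO hearts, the resident mean through Tcf21 alone. The activated mean was 4.28 ± 0.34 in cKO and 3.52 ± 0.07 in floxed hearts on the log2 CPM scale, and every cKO heart lay above every floxed heart. The resident mean was 6.59 ± 0.17 and 6.36 ± 0.09, again with every cKO heart the higher, though the lowest cKO heart (6.465) was close to the highest floxed heart (6.458). Of the resident trio only Tcf21 had a positive log2 fold change (1.05), with Pdgfra at -0.16 and Dcn at -0.14. The summed level of the trio overlapped, at 336 to 436 CPM in cKO and 386 to 416 CPM in floxed hearts. In KI/KI hearts the activated and resident means exceeded those of WT hearts by 0.35 and 0.32, and the groups overlapped in both.

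The scale of this contrast was set by different genes. Against Dcn in the same heart, Meox1 was higher by 1.77 in cKO than in floxed hearts on the log2 scale and Cthrc1 by 1.00, whereas Fap was higher by 0.02. The Fap difference was -0.35 without cKO 6, since cKO 4 and cKO 5 (-5.73 and -5.78) lay below all floxed hearts (-5.63 to -5.24) and cKO 6 lay above them at -4.62. Tcf21, a resident marker, was higher against Dcn by 1.18, and Pdgfra stood at -1.68 ± 0.58 in cKO and -1.68 ± 0.11 in floxed hearts. In KI/KI hearts Fap was lower against Dcn than in WT hearts (-7.00 ± 0.20 and -6.51 ± 0.32), with overlapping groups, and Meox1 was at -5.03 ± 1.02 and -5.51 ± 0.38. Without KI/KI 5 the difference against Dcn was 0.07 for Meox1 in place of 0.47, 0.03 for Tcf21 in place of 0.28 and -0.06 for Cthrc1 in place of 0.36. Without KI/KI 4 it was 1.04 for Meox1, 0.48 for Tcf21 and 0.32 for Cthrc1.

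**Figure D3:**
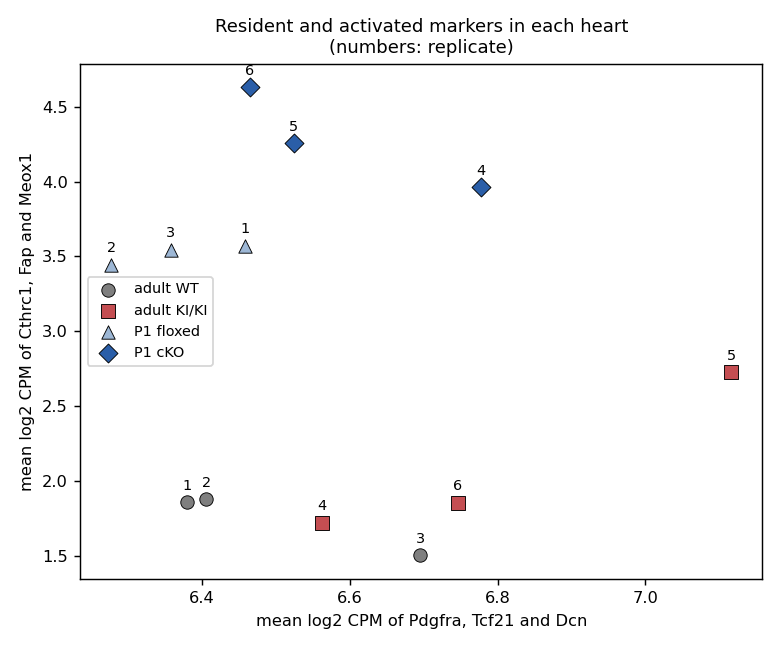
Mean log2 CPM of the activated markers Cthrc1, Fap and Meox1 (y axis) against that of the resident markers Pdgfra, Tcf21 and Dcn (x axis) in each of 12 hearts, with the replicate number beside each point. The P1 hearts lie above the adult hearts on the y axis, where only Cthrc1 of the activated markers was called between the control groups of the ages. The cKO hearts (activated mean 4.28 ± 0.34) lie above the floxed hearts (3.52 ± 0.07), and KI/KI 5 lies apart from the other adult hearts on both axes.

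The markers did not vary as a block among cKO or WT hearts, whereas most of them moved together in KI/KI 4 and KI/KI 5. In cKO 6, Dcn, Lum and Fap were above the group mean, by 0.40 for Dcn and 1.15 for Fap on the log2 CPM scale, while Pdgfra and Tcf21 were below it (-0.27 and -0.49). In cKO 4 the signs were the other way for each of these 5. In KI/KI 5, 9 of 10 markers were above the group mean, with Fap the exception, and the largest deviations were those of Cthrc1 (0.99), Meox1 (0.95) and Tcf21 (0.65). In KI/KI 4 all markers but Fap and Wt1 were below it, Meox1 the most (-1.24) and Cthrc1 the least (-0.0014). WT 3 was above its group mean for Pdgfra, Tcf21, Dcn, Lum and Meox1 and below it for Cthrc1, Fap, Thy1 and Wt1, with Ddr2 at -0.0058.

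**Figure D4:**
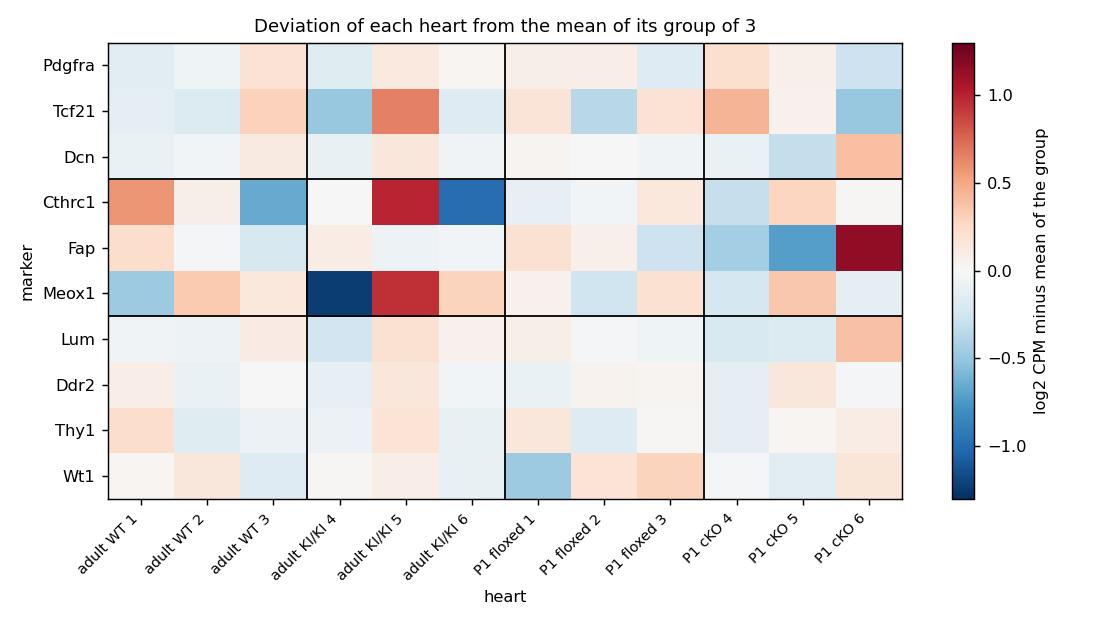
Log2 CPM of each marker (rows) in each heart (columns) minus the mean of its group of 3, on a colour scale from blue (below) to red (above), with lines between groups and between resident, activated and other markers. In cKO 6 Fap (1.15), Dcn (0.40) and Lum are red and Tcf21 (-0.49) and Pdgfra (-0.27) are blue.

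Genes that followed the markers most closely among hearts of the same group were found by Pearson's r over 12 hearts after centring on group means, as a description, since the hearts share their preparation and the genes were chosen for their r. For the resident trio these were Rab7l1, Asl, Spi1, Junb and Zbed5 (r between 0.94 and 0.96). For the activated trio they were Hjurp, Akip1, Bach2, Abhd17a and Adam17 (r between 0.93 and 0.97), and for Wt1 they included Ank1, Zmat2, Pdzd3 and Gm9899 (r between 0.86 and 0.93). None of the genes named here was on the lists of fibroblast genes described next.

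Other genes of resident and activated fibroblasts were taken from lists of 32 and 35 symbols. These lists, and those further below, were chosen with earlier results of these data known. Their counts are therefore a description beside the share over all genes. In cKO hearts, 20 of the 35 other activated genes rose and 0 fell, 12 of them by more than 2-fold, with a median log2 fold change of 0.91, beside the 9.32%, 7.57% and 2.85% of all genes given above. Of the 31 other resident genes tested, 3 rose and 1 fell, with a median of 0.26. Col8a1, a short-chain collagen, rose from 10.8 ± 0.547 to 53.6 ± 17.9 CPM (log2 fold change 2.31, SE 0.23, edgeR adjusted p = 0.00502), and Tnc (tenascin C, a matrix glycoprotein of remodelling tissue) from 91.0 ± 21.0 to 279 ± 48.0 CPM (1.61, SE 0.19, edgeR adjusted p = 0.00654). Cilp, a secreted matrix protein of activated fibroblasts, rose from 2.05 ± 0.324 to 13.4 ± 5.64 CPM (2.7003, SE 0.33, edgeR adjusted p = 0.00687). Ctgf, a matricellular protein that cardiomyocytes can also express, had the largest log2 fold change of these 4 (3.46, SE 0.40, edgeR adjusted p = 0.00637), from 112 ± 19.4 to 1225 ± 569 CPM. The number of other activated genes called was 2 without floxed 1, 5 without floxed 2, 12 without floxed 3 and 8 without cKO 5, and it was 27 without cKO 6. In those fits 86, 303, 930, 320 and 1942 of all genes were called higher, against 1427 with all hearts. With each heart left out, the median of the other activated genes was 0.75 to 1.04, with 29 to 31 of 35 positive.

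The resident genes that rose were Pcolce, an enhancer of procollagen processing (67.2 ± 5.86 to 123 ± 14.1 CPM, log2 fold change 0.87, SE 0.10), Col6a3 (0.68, SE 0.15) and Col1a1, the main chain of type I collagen (1031 ± 61.2 to 1522 ± 228 CPM, 0.56, SE 0.12). Clec3b (tetranectin, a secreted lectin) fell from 9.19 ± 0.968 to 3.35 ± 1.95 CPM (-1.48, SE 0.39, edgeR adjusted p = 0.0426). The number of resident genes that rose ranged from 0 without floxed 1 to 9 without cKO 6, where 86 and 1942 of all genes rose. It was 1 without floxed 2, floxed 3 or cKO 5, and 6 without cKO 4, with DESeq2 or with the Y-linked covariate.

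Relatives and partners of the markers gave 4 genes that rose and 1 that fell among 17 tested, with a median log2 fold change of 0.34. Ogn (osteoglycin) and Bgn (biglycan), proteoglycans of the family of Dcn and Lum, rose by 1.00 (SE 0.12) and 1.04 (SE 0.20) on the log2 scale, with edgeR adjusted p of 0.00688 and 0.0188. Epyc, another member of that family, fell from 0.794 ± 0.046 to 0.298 ± 0.050 CPM. Pdgfrb, the sister receptor of Pdgfra and a marker of mural cells, rose from 99.0 ± 1.87 to 135 ± 22.5 CPM (0.44, SE 0.11, edgeR adjusted p = 0.0396). Hence members of the same proteoglycan family had calls in both directions, and Dcn and Lum had none with all hearts. Without cKO 6, 4 of these relatives rose and 3 fell, where 1942 and 1521 of 15673 genes did. Without floxed 1 none was called, where 86 of 15538 genes rose and 74 fell.

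In KI/KI hearts no listed gene was called with edgeR when all hearts were included. At an unadjusted p under 0.05 there were 20 of the 35 other activated and 13 of the 32 other resident genes, against 16.2% of all genes, and DESeq2 called 5 and 6 of them, against 3.56%. Of the other activated genes, 30 of 35 had a positive log2 fold change (median 0.94) and all 3 KI/KI hearts were above all 3 WT hearts for 17, where 11.4% of all genes were. Of the other resident genes, 25 of 32 had a positive log2 fold change (median 0.40), with 11 above. The summed level of the other activated genes was 1614, 4170 and 2309 CPM in KI/KI 4, 5 and 6 and 1489 to 1578 CPM in WT hearts, so that KI/KI 5 stood far above the others and KI/KI 4 close to WT. Without KI/KI 5 the median was 0.42 for the other activated genes (28 of 35 positive) and 0.19 for the other resident genes (25 of 32 positive). Without KI/KI 4 the medians were 1.21 (31 of 35 positive) and 0.51 (25 of 32 positive). In that fit 1 gene of each list was called higher, where 40 of 14814 genes were. Cilp had the largest value (2.77, SE 0.68, edgeR adjusted p = 0.213), from 11.8 ± 0.763 to 80.1 ± 77.8 CPM, followed by Ltbp2, a latent TGF-β binding protein, from 6.67 ± 1.66 to 35.6 ± 35.005 CPM. Their SDs in KI/KI hearts were close to their means. Mfap5 and Igfbp6 had the largest values among the resident genes (1.12 and 1.07, edgeR adjusted p = 0.238 and 0.193). Bgn had 0.98 (SE 0.30) and Omd 0.66 (SE 0.40) among the relatives, whose median over 17 genes was 0.13.

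**Figure D5:**
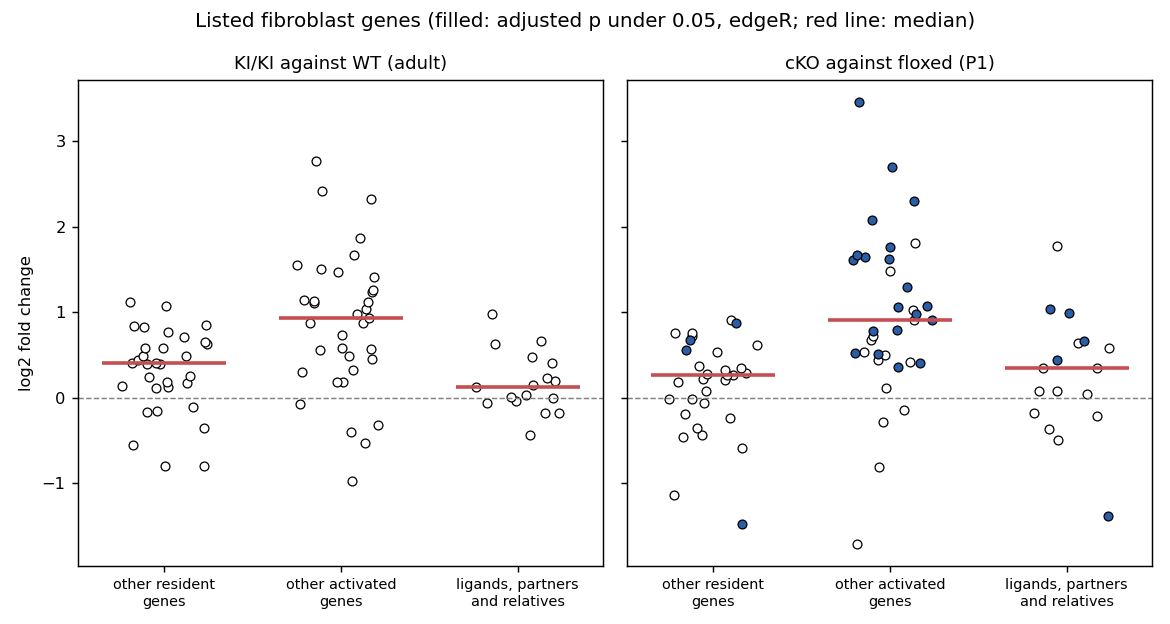
Log2 fold change (y axis) of the other resident fibroblast genes, the other activated fibroblast genes and the ligands, partners and relatives of the markers (x axis) in KI/KI against WT and in cKO against floxed hearts, 1 point per gene tested. Filled points have an adjusted p under 0.05 (edgeR) and the red line is the median, which for the other activated genes was 0.94 in KI/KI and 0.91 in cKO hearts.

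Both lists held genes higher and genes lower between the ages, where 33.4% of all genes were called higher and 31.8% lower. At P1, 20 of the 35 other activated genes were higher and 8 lower than in adult WT hearts (median 1.88), and 10 of the 32 other resident genes were higher and 17 lower (median -0.94). Postn (periostin) had the smallest adjusted p among the activated genes, with 1279 ± 64.9 CPM in floxed and 76.5 ± 4.72 CPM in WT hearts (log2 fold change 4.07, SE 0.09), and Col12a1, Col5a2 and Fstl1 were higher by 3.51, 2.48 and 2.38. Larger log2 fold changes with larger adjusted p were those of Tnc (4.81) and Cilp2 (-6.27), named after their values were seen. Cilp (-2.52, SE 0.15) and Col8a1 (-2.26, SE 0.13), which rose in cKO hearts, were lower at P1 than in adults. Among the resident genes Pi16, a marker of adventitial fibroblasts, was at 6.14 ± 0.502 CPM in floxed and 81.5 ± 3.13 CPM in WT hearts, and Gsn, Htra3 and Dpep1 had log2 fold changes of -2.96, -2.21 and -1.57. Of the relatives, 5 were higher and 8 lower at P1, and those with the smallest adjusted p were Podn (-4.09), Ddr1 (1.47), Aspn (2.00) and Tbx18 (1.98).

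Wt1 was set beside 15 other genes of the epicardium. At P1, 9 of them were higher and 1 lower than in adult WT hearts (median log2 fold change 1.62), among them Tbx18 (12.2 ± 1.24 to 47.9 ± 5.36 CPM), Aldh1a2 (6.18 ± 2.11 to 27.5 ± 4.56 CPM) and Msln (5.61 ± 2.55 to 19.0 ± 7.01 CPM) as higher and Efemp1 as lower. In cKO hearts 0 of 15 were called with edgeR (0 at an unadjusted p under 0.05, and 1 with DESeq2), with a median log2 fold change of -0.72. Their summed level was 140 to 238 CPM against 152 to 216 in floxed hearts. Without cKO 4, 4 of the 15 were called lower (median -1.63), where 848 of 15528 genes were called lower. Without cKO 6, 1 was called higher (median -0.26), where 1942 of 15673 genes were called higher. In KI/KI hearts 0 of 15 were called with edgeR (1 at an unadjusted p under 0.05, and 1 with DESeq2), with sums of 74.6 to 112 CPM against 63.8 to 111 in WT hearts. The KI/KI median was 0.02 (10 of 15 positive). It was 0.57 without WT 3 (14 of 15 positive) and -0.21 without KI/KI 5 (4 of 15 positive).

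Markers of other cell types are given beside the fibroblast markers in cKO hearts, where 9.32% of all genes were called higher and 7.57% lower. Of 10 cardiomyocyte genes 4 fell and 0 rose, and their summed level was 47620 to 52726 CPM against 56601 to 66069 in floxed hearts. Of 10 macrophage genes 5 rose and 0 fell, with sums of 163 to 307 CPM against 127 to 150 CPM. Mural cell genes (4 rose and 1 fell of 10) had sums of 1049 to 1475 against 1208 to 1265 CPM. Of their mean sums, 1252 CPM in cKO and 1240 CPM in floxed hearts, Abcc9 alone made up 321 and 556 CPM. Endothelial genes (3 rose of 10) had sums of 1650 to 1934 against 1366 to 1484 CPM. The macrophage sum was highest in cKO 4 and the mural sum in cKO 6. Without cKO 6, 8 macrophage genes rose, 6 cardiomyocyte genes fell, and 3 mural genes rose and 4 fell, where 1942 of 15673 genes rose and 1521 fell. Without floxed 1 no gene of these 4 lists was called, where 86 of 15538 genes rose and 74 fell. Of 10 neuron and Schwann cell genes 1 rose and 3 fell, and of 10 genes of valve and cartilage-like mesenchyme 1 rose. Genes of T cells and thymocytes, which can carry Thy1, summed to 1.96 to 3.62 CPM against 1.24 to 2.78 CPM over 11 genes, with up to 4 of them at 0 in a heart. Of these, 2 passed the filter and 1 rose, the co-receptor gene Cd4, which macrophages can also express (0.378 ± 0.108 to 1.51 ± 0.777 CPM, edgeR adjusted p = 0.0334). It is named after its values were seen. The defining genes Cd3d, Cd3e and Cd3g were near 0, at means of 0.015, 0.174 and 0.0081 CPM in cKO and 0.058, 0.065 and 0.051 CPM in floxed hearts. Lung epithelium genes, none of them called, summed to 24.1, 3.83 and 5.57 CPM in cKO 4, 5 and 6. In floxed hearts 1, 2 and 3 they summed to 32.2, 50.9 and 2.77 CPM. The part of these cell types in the rise of Tcf21, Cthrc1 and Meox1 was not tested.

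In KI/KI hearts no gene of these lists was called with edgeR. All 10 cardiomyocyte genes had a negative log2 fold change (median -0.23), with sums of 75410 to 100772 CPM against 98787 to 112746 in WT hearts, and 9 of 10 macrophage genes a positive one (median 0.38), with sums of 497 to 577 against 315 to 474 CPM. Adipocyte genes summed to 223 to 316 against 338 to 448 CPM over 8 genes. Of their mean sums, 264 CPM in KI/KI and 410 CPM in WT hearts, Plin4 alone made up 241 and 376 CPM. The median log2 fold change of the 8 adipocyte genes was -0.69 (0 positive), and it was 1.51 without WT 3 (7 positive). Lung epithelium genes summed to 102 CPM in WT 3 and 35.9 CPM in KI/KI 4, against 0.885 to 1.52 CPM in the other adult hearts. Of their mean sums, 34.6 CPM in WT and 12.9 CPM in KI/KI hearts, Scgb1a1 alone made up 31.8 and 11.4 CPM. The part of these cell types in the levels of Dcn and Lum was not tested. At P1, 9 of 10 cardiomyocyte genes and 9 of 10 macrophage genes were lower than in adult WT hearts, and 4 of the 5 adipocyte genes tested were. Of 10 genes of valve and cartilage-like mesenchyme 7 were higher and 2 lower, and of 9 neuron and Schwann cell genes tested 5 were higher and 1 lower. Mural cell genes were 2 higher and 6 lower of 10, and endothelial genes 3 and 3 of 10. Over all genes, 33.4% were called higher and 31.8% lower. Whether this accounts for any of the differences in the markers between the ages was not tested.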

How the data were processed

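Poly(A) RNA of 12 mouse hearts was sequenced as single-end reads. After trimming (Trim Galore) and alignment to mm10 (STAR 2.7.2b), the authors used HTSeq for counting and deposited the raw counts of each symbol, not normalized. The genome and annotation came from Illumina iGenomes, and the strand setting is not given in the sources used here.

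Differences were tested by edgeR 4.0.16 in R 4.3.3 (TMM, filterByExpr, robust quasi-likelihood test with the dispersion estimate of edgeR version 4, Benjamini-Hochberg adjustment over all genes tested), each comparison on its own 6 libraries and the interaction on 12. SEs were the log2 fold change over the root of the F statistic. Log2 CPM used a prior count of 2, and lengths came from GENCODE exons on GRCm38. DESeq2 1.42.0, the tool the study names, and limma 3.58.1 were alternatives. Lists and differences against Dcn were also recomputed without each heart, an alternative chosen after seeing the data. The scripts were tested on simulated data. Replicates are mice, none with identical counts.

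The members and lists were chosen with earlier results of these data known. Named genes are the 10 markers, Lemd2, up to 4 called genes per list and comparison (otherwise the 2 largest changes) and the 5 nearest genes per pattern, of which 1 is not reported here. Same-numbered WT and floxed hearts had correlations of deviations of -0.22, -0.28 and -0.50, and KI/KI and cKO hearts of 0.18, 0.23 and 0.05, so the numbers did not pair hearts.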

Additional observations from a re-analysis of the deposited data

How the results depend on the processing

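Precision was limited by 3 mice per group rather than by counts, except for Cthrc1 in adult hearts. The log2 fold changes of the markers kept their direction under every change of normalization, filter, dispersion or tool, apart from limma-voom, which gave Fap -0.18 in cKO hearts and Cthrc1 0.11 for the difference between the models. The floor of 3 counts covers counting error only, whereas SDs and SEs cover the spread between mice.

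Over all genes, the number called higher and lower by more than 2-fold in KI/KI hearts was 0 and 0, and it was 110 and 47 with DESeq2 and 21 and 11 with all 12 libraries in one fit. Leaving out each heart in turn gave 0 to 27 and 0 to 11. In cKO hearts it was 437 and 273, with 882 and 670 at a fold change above 1.5, and 58 to 601 and 45 to 356 with each heart left out. For the difference between the models it was 75 and 85, with 166 and 183 by DESeq2, and 16 to 161 and 16 to 178 with each heart left out. The number of markers called was 3 in cKO hearts (0 to 6 with each heart left out) and 0 for the difference between the models (0 to 2).

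With each heart left out, signs changed only for markers that had no call with all hearts: in cKO hearts Dcn (-0.36 to 0.00727), Fap (-0.73 to 0.39, where -0.06 was without floxed 3) and Wt1 (-0.25 to 0.10), between the ages Pdgfra (-0.11 to 0.0516), and for the difference between the models Ddr2 (-0.0443 to 0.11), Cthrc1 (-0.48 to 0.71), Fap (-0.47 to 0.66) and Wt1 (-0.0745 to 0.27). Their cause was not tested.

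No paired analysis was possible for KI/KI against WT or cKO against floxed because these groups share no replicate numbers. With the replicate block, the difference between the models gave 0 and 0 genes, and P1 floxed against adult WT gave 2060 and 2004 genes (2103 and 2029 without it) and 5 markers. The numbers paired no hearts, as the correlations of deviations showed.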

Other observations

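Partners and close relatives of single markers that gave no call are described here by their values, named after these were seen. None of the genes for the 4 platelet-derived growth factor chains, which act on the receptors PDGFRA and PDGFRB, was called with edgeR in either model. Pdgfc, a ligand of PDGFRA, had 7.60 ± 1.78 CPM in floxed and 25.6 ± 16.8 CPM in cKO hearts (mean ± SD, n = 3), with overlapping hearts (log2 fold change 1.77, SE 0.55, edgeR adjusted p = 0.0685, DESeq2 adjusted p = 0.0373). In KI/KI hearts Pdgfc had a log2 fold change of 0.48 (SE 0.22, edgeR adjusted p = 0.342). Pdgfa, the other main ligand of PDGFRA, had -0.18 in both cKO and KI/KI hearts.

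Dpp4, the protease most closely related to Fap, had 22.8 ± 1.78 CPM in floxed and 16.2 ± 3.59 CPM in cKO hearts, and all 3 cKO hearts lay below the floxed hearts (log2 fold change -0.49, SE 0.17, edgeR adjusted p = 0.0864). Meox2, the paralogue of Meox1, had a log2 fold change of 0.08 (SE 0.43) in cKO and 0.13 (SE 0.14) in KI/KI hearts, beside 1.61 and 0.94 for Meox1. Ddr1, the collagen receptor related to Ddr2, had -0.22 (SE 0.17) in cKO hearts. Msc, a basic helix-loop-helix factor related to Tcf21, had 2.22 ± 0.674 CPM in floxed and 3.47 ± 0.259 CPM in cKO hearts, without overlap (0.64, SE 0.24, edgeR adjusted p = 0.106).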
